A study of Mus musculus with 4 samples.

Results

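The 6 genes described here encode inhibitors of proteases that epithelia make: Slpi, Wfdc3, Wfdc18, Serpinb3b, Stfa3 and Cstdc5. They were chosen by name, with earlier results of these data known, from a panel of 328 genes. The panel was read by in situ imaging in mouse dorsal skin, buccal mucosa (the inner cheek) and day 4 skin wounds. A transcript of a member was counted in the cell to which the instrument assigned it when its decoding quality score was at least 20. Stratified epithelia make such inhibitors to hold in check the proteases of leukocytes, of microbes and of the epithelium itself. Slpi, the secretory leukocyte peptidase inhibitor, blocks the serine proteases of neutrophil granules, elastase among them, and is abundant in saliva and mucosal fluids. Wfdc3 and Wfdc18 carry the same whey acidic protein fold as Slpi. Serpinb3b is an intracellular serpin of clade B, related to the human squamous cell carcinoma antigens. Stfa3 and Cstdc5 are stefins, small intracellular inhibitors of cysteine cathepsins, and the human stefin A is a precursor of the cornified envelope of keratinocytes.

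The study asked how the transcription factor PITX1, which is present in oral but not in ordinary skin epithelium, changes the skin and its wounds. The mice carried a tetracycline-responsive Pitx1 transgene (TRE-Pitx1) and a Krt5-rtTA driver, so induction was limited to cells in which the Krt5 promoter was active, such as basal keratinocytes. Littermates received normal chow (Control, vehicle) or doxycycline chow (PITX1+), started in the resting phase of the hair cycle, and buccal mucosa came from Control animals on vehicle. Ages were not given in the sources used here. Sections of formalin-fixed, paraffin-embedded tissue, 5 µm thick, lay on 4 slides: unwounded skin of male mice, unwounded skin of female mice, buccal mucosa and male skin at day 4 after excision of full-thickness skin.

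The deposited labels give each slide a mixture of conditions, so a section was named by its position on the slide. This gave 3 Control sections (Control 1 and 2 on the female slide, Control 3 on the male slide), 4 PITX1+ sections (PITX1+ 1 and 2 female, PITX1+ 3 and 4 male), 7 buccal sections, 1 Control wound and 2 PITX1+ wounds. Sections held 474847 to 749248 transcripts in Control, 2832562 to 5581930 in PITX1+ and 1622746 to 5430303 in wounds. The labels do not tie sections to animals, although the study counts its PITX1+ skin samples as mice, and p-values here measure only the spread between sections. Cell totals per section were a check of these names: in 14 of 14 unwounded sections the nearest total listed by the study was of the same condition, at most 4.91% off. Pitx1 itself was a further check. In keratinocyte-like cells Pitx1 stood at 61.5, 50.02 and 13.9 CPM, counts per 1000000 panel transcripts of those cells, in Control 1, 2 and 3. It stood at 42.9 and 78.9 CPM in PITX1+ 1 and 2, and at 1064 and 862 CPM in PITX1+ 3 and 4. Pitx1 was thus high in both male sections assigned to PITX1+ and within the Control range or just above it in both female ones. The test across both slides did not call it (log2 fold change 1.75, adjusted p = 0.20, edgeR), whereas the male slide alone did (5.99, adjusted p = 0.0123), with its only Control section assumed to vary like the other sections. On the female slide alone the change was 0.49 (adjusted p = 0.28). Control and PITX1+ therefore stand below for sections so assigned, and values of both slides are given wherever a result turns on the slide. Buccal keratinocyte-like cells held 737 to 1259 CPM of Pitx1, the Control wound 51.9 CPM and the PITX1+ wounds 639 and 326 CPM.

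Cells were clustered without the 6 members and without the other protease and inhibitor genes of the panel, except Mcpt4, Mcpt8 and Mmp9, which were used. Clusters were named as "like" a kind of cell from marker genes. Keratinocyte-like cells numbered 4209 to 6188 in Control, 12045 to 31105 in PITX1+ and 1312 to 4837 in 6 buccal sections. The remaining section, Buccal 3, had too few keratinocyte-like cells for a value and enters no comparison, so the epithelium of the cheek was not seen there. Activated-like keratinocytes were named from 10 markers, among them Krt6a, Krt16, Krt17, Sprr1a and wound-associated cytokine genes. They made up 2.0% to 2.1% of cells in Control and 14.5%, 7.19%, 10.5% and 3.01% in PITX1+ 1 to 4. Those of Control lay almost wholly in a cluster led by Krt79, Plet1 and Crabp2. Its leading genes included Krt17, Sprr1a and Areg but not Krt6a or Krt16, so the class held unlike cells in the 2 groups. Each gene was read by its own probes, so levels are compared between samples and not between genes. In a sum over a class of cells, fewer expressing cells and less RNA per cell cannot be told apart.

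In keratinocyte-like cells of unwounded skin, Slpi was far higher and Wfdc3 far lower in PITX1+ than in Control, and these were the 2 of 6 members that passed the test, beside 31.1% of the 328 genes tested. Across all genes 44 were higher and 58 lower, with a median log2 fold change of -0.05, and the members' median was 1.25. Stfa3 and Cstdc5 were high in the female PITX1+ sections and not in the male ones. Serpinb3b overlapped between the groups.

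**Figure D1:**
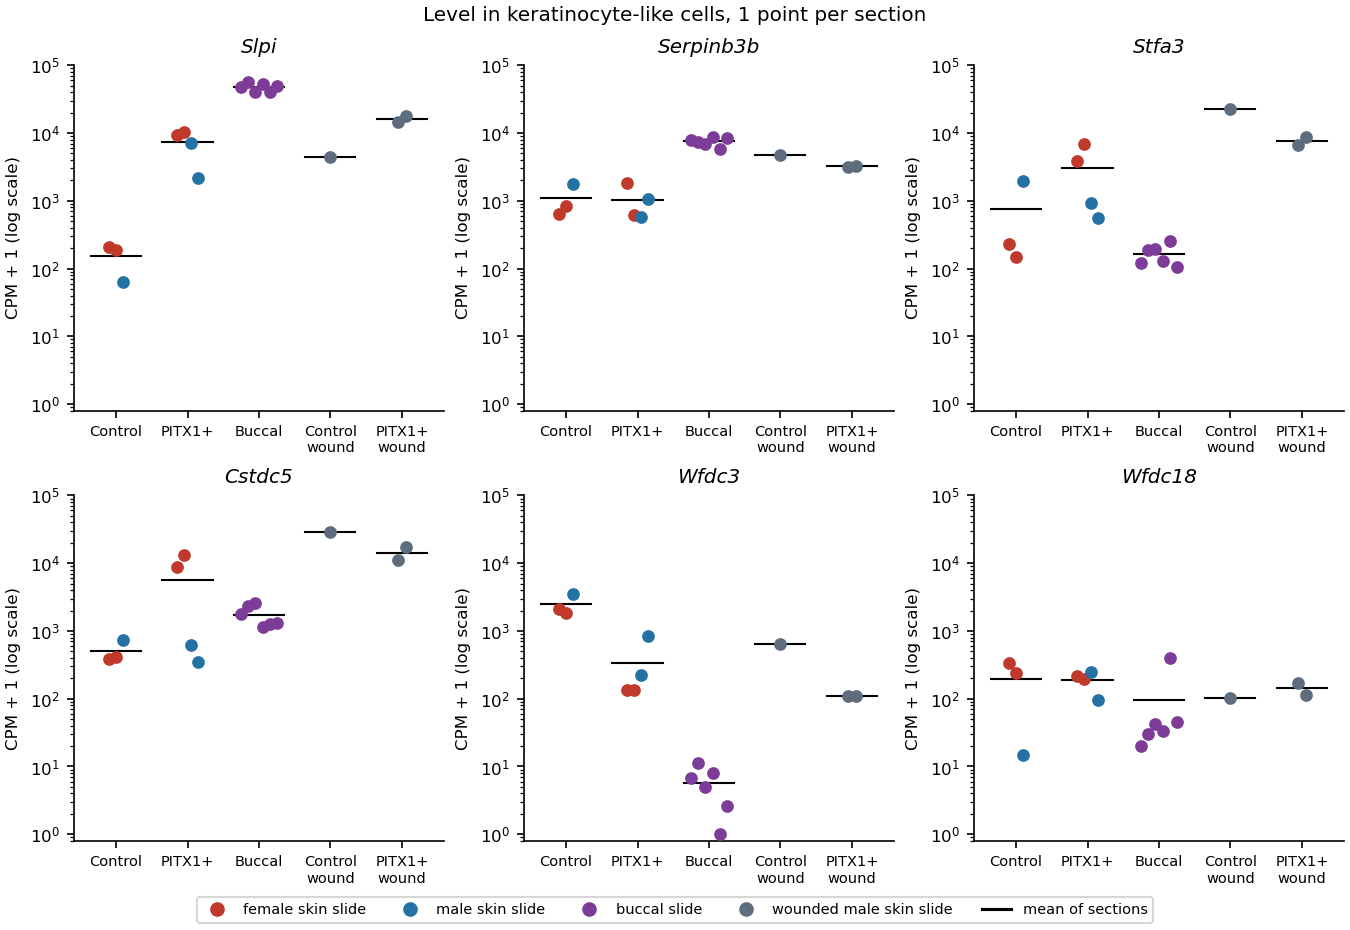
Level of each member in keratinocyte-like cells, in CPM + 1 on a log axis, by group; each point is 1 section, coloured by slide, and the black line is the mean of the sections. The PITX1+ sections lie above all Control sections for Slpi and below them for Wfdc3, and the 2 female PITX1+ sections stand above the 2 male ones for Stfa3 and Cstdc5.

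Slpi stood at 208, 189 and 62.4 CPM in Control 1, 2 and 3, and these 3 values rest on 136 transcripts in all. In PITX1+ 1 to 4 it stood at 9419, 10504, 7110 and 2172 CPM. The groups did not overlap, and the lowest PITX1+ section, PITX1+ 4 of the male slide, was still far above the highest Control section. The mean rose from 153 ± 79.2 CPM (SD, n = 3) to 7301 ± 3701 CPM (SD, n = 4), a ratio of 47.7, and the log2 fold change was 5.94 ± 0.53 (SE, adjusted p = 0.00133, edgeR's quasi-likelihood test). Within slides the change was 6.01 ± 0.36 on the female slide (adjusted p = 2.4e-06) and 6.09 ± 1.01 on the male slide (adjusted p = 0.0174), where the only Control section was assumed to vary like the others. The difference of the change between the slides was -0.08 ± 1.06 (adjusted p = 0.97). Slpi in Control was close to its level in fibroblast-like cells of the same sections (179, 120 and 42.5 CPM), so these ratios are set against a level near the background.

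By kind of keratinocyte, Slpi was highest in activated-like cells in 3 of 4 PITX1+ sections. Activated-like cells held 19768, 14763, 22933 and 14060 CPM in PITX1+ 1 to 4 and 639, 638 and 0 CPM in Control 1 to 3. In PITX1+ 2 cornifying-like cells, at 22642 CPM, and suprabasal-like cells, at 18371 CPM, were higher still. Activated-like cells were a median of 8.82% of cells in PITX1+ sections and held a median of 56.1% of their Slpi transcripts (25.03% to 79.2%). Within the class, the activated-like cells of Control lay almost wholly in 1 cluster, led by Krt79, Plet1 and Crabp2, whereas those of PITX1+ lay in this cluster and in 2 others, led by Areg and Krt16 and by Aldh1a3, Sprr2d and Hbegf. In the first cluster alone, singled out after its values were seen, Slpi was 643, 643 and 0 CPM in Control and 6294, 6379, 15635 and 5395 CPM in PITX1+ 1 to 4. The cluster led by Aldh1a3 reached 54378, 50541 and 43740 CPM in PITX1+ 1 to 3, while PITX1+ 4 held under 50 cells of it.

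Because cells of PITX1+ skin also held more transcripts (median 30 to 83 per cell against 17 to 28), each cell was thinned to 50 transcripts, leaving out shallower cells. This kept 743 to 2911 keratinocyte-like cells of each Control section and 9860 to 22745 of each PITX1+ section. Before any were left out, the median depth of keratinocyte-like cells was 25 to 47 transcripts in Control and 71 to 100 in PITX1+. After thinning, 5.93% to 21.5% of keratinocyte-like cells of PITX1+ held a Slpi transcript, against 0.42% to 1.07% in Control (8.46% to 25.1% and 0.21% to 1.26% unthinned). In fibroblast-like cells, with median depths of 26 to 72 transcripts, the thinned shares were 0.22% to 2.62% in PITX1+ and 0.24% to 0.79% in Control. Thinned activated-like cells of PITX1+ had Slpi in 28.7% to 48.2% of cells, where the unthinned share was 30.9% to 51.7%. Basal-like cells carried less Slpi, at 442, 275 and 0 CPM in Control and 2718, 2037, 2564 and 633 CPM in PITX1+ 1 to 4. In hair follicle-like cells Slpi was 149, 122 and 17.8 CPM in Control and 2944, 2741, 2306 and 1687 CPM in PITX1+, again without overlap. This class held different clusters in the groups. In its cluster led by Krt15, which held most of the class in Control, Slpi overlapped, at 134, 127 and 23.9 CPM in Control and 203, 269, 0 and 46.2 CPM in PITX1+ 1 to 4. In a cluster led by Krt79, Fcgbp and Sostdc1, which had cells in every skin section, it was 222, 105 and 0 CPM against 942, 1280, 1436 and 349 CPM. Both clusters were singled out after their values were seen, and the part of the shift between clusters in the Slpi difference was not tested.

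Markers of neutrophils, which are a known source of Slpi, were also measured in the keratinocyte-like sums. All 9 neutrophil markers were detected there, with a summed level of 1331 to 1914 CPM in Control and 515 to 3122 CPM in PITX1+, and 1 of the 9 was called higher. The markers include S100a8 and Chil3, which were also among the leading genes of keratinocyte-like clusters. Their sum is therefore not a measure of neutrophil RNA alone, and it was 2509 to 19564 CPM in buccal keratinocyte-like cells. Neutrophil-like cells were at most 0.473% of cells in any unwounded skin section, and keratinocyte-like cells held 94.9% to 97.3% of the Slpi transcripts of PITX1+ sections. The 10 activated keratinocyte markers summed to 77819 to 94846 CPM in Control and 82590 to 177171 CPM in PITX1+, with 4 of 10 called higher. Their part in the Slpi result was not tested.

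Wfdc3 went the other way. It stood at 2138, 1866 and 3550 CPM in Control 1, 2 and 3 and at 134, 134, 220 and 835 CPM in PITX1+ 1 to 4. Every PITX1+ section was below every Control section, with PITX1+ 4 the highest of its group. In PITX1+ 1 and 2 keratinocyte-like cells held 45.1% and 54.6% of Wfdc3 transcripts and were 39.0% and 41.3% of cells. Fibroblast-like cells of PITX1+ sections held 19.2 to 270 CPM, so the ratio is set against a level near the background in the female sections. The means of Wfdc3 in keratinocyte-like cells were 2518 ± 904 (SD, n = 3) and 331 ± 339 CPM (SD, n = 4), a ratio of 7.61 of Control over PITX1+, and the log2 fold change was -3.40 ± 0.44 (SE, adjusted p = 0.00418, edgeR). The change was -3.54 ± 0.30 on the female slide (adjusted p = 9.56e-06) and -2.86 ± 0.74 on the male slide, where it did not pass the test (adjusted p = 0.055).

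In Control skin Wfdc3 belonged mainly to the hair follicle: 68.4% to 84.8% of its transcripts lay in hair follicle-like cells. There it stood at 3868, 3975 and 8160 CPM in Control 1 to 3 and at 278, 237, 252 and 1029 CPM in PITX1+ 1 to 4. Hair follicle-like cells themselves were 11.1% to 34.1% of PITX1+ cells and 14.9% to 23.3% of Control cells, so their share overlapped, but the clusters that made up the class differed between the groups. A cluster led by Krt15, Fcgbp and Col17a1, with the stem cell gene Lhx2, held 48.8%, 46.2% and 33.4% of keratinocyte-like cells in Control 1 to 3 and 1.49%, 1.09%, 3.72% and 11.4% in PITX1+ 1 to 4. In PITX1+ 2 a cluster led by Ptch1 and Shh held 33.4%.

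Within the cluster led by Krt15, singled out after its values were seen, Wfdc3 stood at 4619, 4618 and 10641 CPM in Control 1 to 3. It stood at 407 and 1347 CPM in the female sections PITX1+ 1 and 2, and at 6069 and 6493 CPM in the male sections PITX1+ 3 and 4. Inside this cluster the male PITX1+ sections lay below the male Control section and above both female ones, and the female PITX1+ sections lay below every Control section. No test was run on single clusters, and the part that the shift between clusters plays in the Wfdc3 result was not tested. In basal-like cells Wfdc3 also fell, from 6004, 4537 and 3359 CPM in Control to 189, 165, 412 and 1104 CPM in PITX1+. With sections pooled, the fall lay in the basal-like cluster led by Lama3 and Il18r1, at 7415 CPM in Control and 480 CPM in PITX1+. In the basal-like cluster led by Fcgbp, Clca3a2 and Col17a1, Wfdc3 was 77.7 CPM in Control and 111 CPM in PITX1+. Both clusters were singled out after their values were seen. In cornifying-like cells Wfdc3 was at most 284 CPM in any unwounded section.

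Wfdc18 was not separated between Control and PITX1+ skin. It stood at 331, 242 and 13.9 CPM in keratinocyte-like cells of Control 1 to 3 and at 213, 192, 245 and 93.1 CPM in PITX1+ 1 to 4, and the groups overlapped. Buccal sections held 19.1 to 394 CPM with a median of 36.7, and the highest, Buccal 6, was the section with most salivary gland-like cells, 43.4% of its cells, where no other section passed 0.327%. Those salivary-like cells held 15964 CPM of Wfdc18 and 91.0% of the section's Wfdc18 transcripts. Other kinds of cell in Buccal 6 also read high, with 2903 CPM in macrophage-like cells, 2359 CPM in fibroblast-like cells and 961 CPM in basal-like cells, and the part of gland RNA in these readings was not tested.

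Serpinb3b, the intracellular serpin, was not separated between Control and PITX1+. Its level was 639, 850 and 1761 CPM in Control 1 to 3 and 1808, 615, 584 and 1049 CPM in PITX1+ 1 to 4. The log2 fold change was -0.05 ± 0.65 (SE, adjusted p = 0.97, edgeR). By kind, cornifying-like cells of Control held 847, 1130 and 2967 CPM and those of PITX1+ 2173, 738, 3360 and 4532 CPM, both with the male sections highest. In PITX1+ 1 the suprabasal-like cells reached 7211 CPM, against 1475 CPM in PITX1+ 2 of the same slide.

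The stefins Stfa3 and Cstdc5 lie in a cluster of 11 stefin genes on mouse chromosome 16 (36119946 to 36455392, GRCm38.p6), both on the minus strand, Stfa3 at 36450537 to 36455392 and Cstdc5 at 36359382 to 36367570. Genes of this cluster resemble each other closely, so the probes of either may also read a neighbour, and the split between them is uncertain. Their promoters are shown because each of the pair was the panel gene most like the other across kinds of cell and sections, and because both differed between the slides in the same direction. Of the 250 bases before the start, 196 were identical when both were aligned end to end, whereas every other pair of members shared 117 to 133. The 90 bases before each start (RefSeq, GRCm38.p6, minus strand, chr16:36455393-36455482 for Stfa3 and chr16:36367571-36367660 for Cstdc5) follow, read 5′ to 3′ with the longest stretch they share without a gap or mismatch, 13 bases, in capitals.
Stfa3: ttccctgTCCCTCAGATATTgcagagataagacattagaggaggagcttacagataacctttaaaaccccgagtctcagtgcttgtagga
Cstdc5: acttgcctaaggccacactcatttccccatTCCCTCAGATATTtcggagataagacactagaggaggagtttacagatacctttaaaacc
The shared stretch begins 83 bases before the start of Stfa3 and 60 bases before that of Cstdc5, and these 2 genes were the only ones of the RefSeq promoter set to hold it. The core sequence TAATCC, bound by PITX factors, was searched on both strands of each promoter window of 300 bases (250 before and 50 after the start). For Wfdc3 the set places that start inside the listed gene (chromosome 2, 164731226 to 164745994, minus strand), with the window at chr2:164743218-164743517, so that the sequence before the listed end was not searched. None of the 6 members' windows held it, as against 7.06% of the 32851 promoter windows in the set; a match or its absence there is a description of these letters only.

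Stfa3 stood at 230, 146 and 1927 CPM in Control 1 to 3 and at 3805, 6884, 924 and 549 CPM in PITX1+ 1 to 4. Cstdc5 stood at 390, 416 and 728 CPM in Control and at 8712, 13180, 615 and 343 CPM in PITX1+. In both genes the female PITX1+ sections were far above the female Control sections, while over all keratinocyte-like cells the male PITX1+ sections were below the male Control section, which did not hold in each kind. Over both slides neither passed the test, with log2 fold changes of 1.94 ± 1.90 for Stfa3 (SE, adjusted p = 0.44) and 2.36 ± 1.55 for Cstdc5 (SE, adjusted p = 0.26).

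The difference between the slides was itself tested, and Stfa3 and Cstdc5 were 2 of 6 members called, beside 4.57% of all genes. The PITX1+ change was lower on the male than on the female slide by 6.86 ± 0.67 for Stfa3 and 6.01 ± 0.59 for Cstdc5 on the log2 scale, as coded (male minus female) -6.86 and -6.01, both with adjusted p = 0.00411 (edgeR). On the female slide alone Stfa3 changed by 5.19 ± 0.41 (adjusted p = 7.89e-06) and Cstdc5 by 5.12 ± 0.38 (adjusted p = 6.79e-06). On the male slide alone the values were -1.50 ± 0.49 (adjusted p = 0.10) and -0.72 ± 0.59 (adjusted p = 0.42). Pitx1 differed the other way, by 5.33 (adjusted p = 0.0209), so the stefins were high on the slide on which Pitx1 was not raised. Sex, slide and the assignment of sections by position cannot be told apart here. Cell totals of the female sections came nearest to a total the study lists for the same condition. They were off by 0.11% and 0.27% in Control 1 and 2 and by 0.33% and 0.09% in PITX1+ 1 and 2. The male change rests on the only male Control section, Control 3, with its spread taken from the other sections. In female Control the stefins were near their level in fibroblast-like cells of the same sections, where Stfa3 was 264 and 120 CPM and Cstdc5 was 327 and 140 CPM.

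The stefins differed by kind of keratinocyte. In basal-like cells Stfa3 was 265, 0 and 5949 CPM in Control and 7019, 17455, 2263 and 1458 CPM in PITX1+ 1 to 4. Cstdc5 there was 706, 412 and 2030 CPM in Control and 9264, 20198, 992 and 1090 CPM in PITX1+. The 2 basal-like clusters that held most basal-like cells of every skin section differed: in the one led by Fcgbp, Clca3a2 and Col17a1, singled out after its values were seen, Stfa3 was 0 CPM in the 55 cells of Control 1, 8591 CPM in Control 3 and 14058, 23856, 10083 and 1995 CPM in PITX1+ 1 to 4, whereas in the one led by Lama3 and Il18r1 no unwounded skin section passed 1661 CPM. Suprabasal-like cells, numerous enough in PITX1+ only in the 2 female sections, held 15851 and 16030 CPM of Stfa3 and 31524 and 31873 CPM of Cstdc5. In cornifying-like cells Stfa3 was 151, 139 and 2285 CPM in Control and 5026, 7466, 5903 and 1854 CPM in PITX1+ 1 to 4, so that PITX1+ 3 was above the male Control section there and PITX1+ 4 below it. Cstdc5 in these cells was 418, 330 and 1068 CPM in Control and 18875, 24706, 977 and 1212 CPM in PITX1+, with the male sections on either side of Control 3. In hair follicle-like cells of unwounded skin both were at most 708 CPM of Stfa3 and 833 CPM of Cstdc5. Female Control 1 and 2 held 298 and 178 CPM of Stfa3 there, more than in their cornifying-like cells, and 366 and 542 CPM of Cstdc5.

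**Figure D2:**
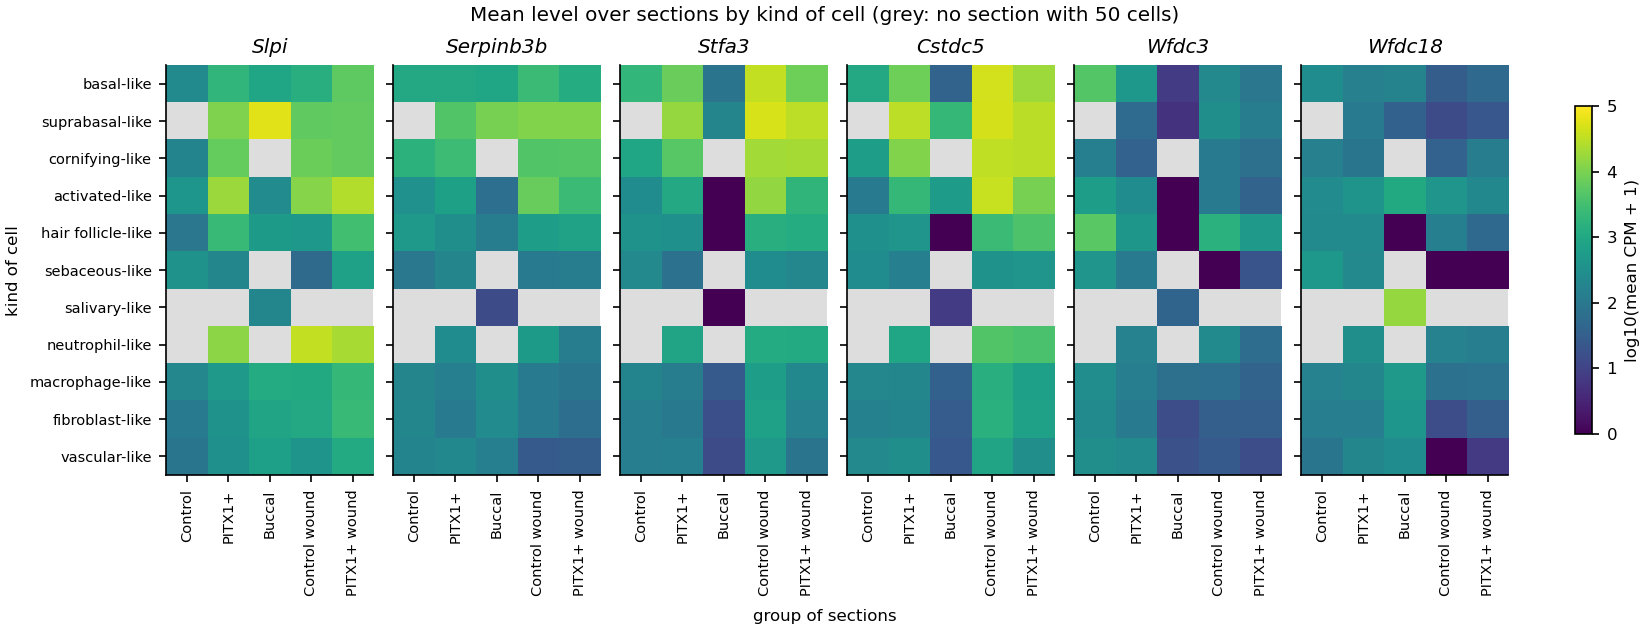
Mean level of each member by kind of cell (vertical axis) and group (horizontal axis), as log10 of the mean CPM + 1 over sections with at least 50 cells of the kind; grey means that no section had 50 cells. Slpi is highest in buccal suprabasal-like cells, Wfdc3 in hair follicle-like and basal-like cells of Control, the stefins in suprabasal-like and then basal-like cells of the Control wound, and Wfdc18 in salivary-like cells.

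Within classes of keratinocyte, whose clusters still differed between the groups, the members called were again Slpi and Wfdc3. In basal-like cells both passed (2 of 6, beside 4.22% of the 308 genes tested), with 3.63 ± 0.80 for Slpi (SE, adjusted p = 0.0369) and -3.72 ± 0.61 for Wfdc3 (SE, adjusted p = 0.0329), and both calls were lost without Control 1, Control 2, PITX1+ 1 or PITX1+ 2, with library size in place of TMM, without the slide as covariate, and on the male slide alone. In suprabasal-like cells, taken with cornifying-like and activated-like cells, Slpi alone passed (1 of 6, beside 20.7%), with 6.72 ± 0.73 (SE, adjusted p = 0.00245). Stfa3 and Cstdc5 there had 3.21 ± 1.61 (SE, adjusted p = 0.17) and 3.52 ± 1.49 (SE, adjusted p = 0.12). This class was held mostly by the cornifying-like cluster led by Krt77 and Flg2 in Control and by several clusters, the activated-like ones among them, in PITX1+. In hair follicle-like cells Slpi had 4.67 ± 0.39 (SE, adjusted p = 0.000132) and Wfdc3 -3.94 ± 0.45 (SE, adjusted p = 0.00049), 2 of 6 beside 37.2%. In all 3 classes every Control section was below every PITX1+ section for Slpi, with the narrowest gap in basal-like cells, from 442 CPM in Control 1 to 633 CPM in PITX1+ 4. The members' median log2 fold changes were 0.92, 2.01 and 0.02 in the 3 classes, beside -0.06, -0.16 and -0.13 over all genes.

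Slpi and Serpinb3b reached their highest levels over keratinocyte-like cells in buccal mucosa. Slpi ranged from 39923 to 57316 CPM over the 6 buccal sections with a median of 48783, above every skin section, wounds included. Serpinb3b ranged from 5898 to 8862 CPM with a median of 7598, likewise above every skin section over this class, though not within suprabasal-like cells of the wounds. Cstdc5 ranged from 1144 to 2566 CPM with a median of 1532, above all Control sections and between the male and the female PITX1+ sections. Stfa3 ranged from 105 to 255 CPM with a median of 157, and Wfdc3 from 0 to 10.2 CPM. Within the buccal epithelium Slpi, Serpinb3b and Cstdc5 were higher in the upper layers. Slpi was 53592 to 66803 CPM in suprabasal-like cells (median 61226) and 594 to 1236 CPM in basal-like cells (median 842). Suprabasal-like cells held a median of 98.8% of the buccal Slpi transcripts. Serpinb3b was 7922 to 10307 CPM there against 432 to 1416 CPM in basal-like cells, and Cstdc5 was 1346 to 3424 CPM against 23.5 to 66.5 CPM, in each case without overlap.

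Against Control skin, 4 of 6 members passed the test, beside 69.1% of the 324 genes tested. Slpi differed by 9.71 on the log2 scale (adjusted p = 5.53e-08), Serpinb3b by 4.09 (adjusted p = 3.65e-05) and Cstdc5 by 3.06 (adjusted p = 0.000156, edgeR), all higher in buccal mucosa. The class was made up differently: hair follicle-like cells were a median of 0.38% of cells in buccal sections and 21.9% in Control. In basal-like cells Cstdc5 went the other way, at 23.5 to 66.5 CPM in buccal mucosa against 412 to 2030 CPM in Control. Serpinb3b overlapped there (432 to 1416 against 442 to 1890 CPM), and Slpi was again higher (594 to 1236 against 0 to 442 CPM). The part of the mix of kinds was not tested. Wfdc3, read mainly in hair follicle-like cells in Control skin, was lower in buccal mucosa (log2 fold change -7.55, adjusted p = 1.73e-06). Stfa3 did not pass, at -1.10 (adjusted p = 0.19, edgeR), and this call changed both with Control 3 and with the scaling given below. Without Control 3 the value was 1.33 (adjusted p = 0.010, edgeR). The buccal levels of Stfa3, 105 to 255 CPM, nevertheless spanned those of Control 1 and 2, 230 and 146 CPM. Since each tissue lay on its own slide, tissue and slide cannot be told apart. These values use TMM scaling; with library size in its place the median of all genes shifted by -1.37, the split of higher and lower calls went from 103 and 121 to 51 and 198, Slpi came to 8.24, Serpinb3b to 2.81 and Cstdc5 to 1.76, and Stfa3 passed the test as lower, at -2.22 (adjusted p = 0.00856).

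PITX1+ skin was compared with buccal mucosa directly, since the study asked whether its keratinocytes take on oral features. Here too 4 of 6 members passed, beside 60.2% of all genes. Slpi was lower in PITX1+ by 3.84 on the log2 scale (-3.84, adjusted p = 3.9e-05) and Serpinb3b likewise (-4.01, adjusted p = 1.08e-05). Stfa3 was higher by 3.15 (adjusted p = 0.000893) and Wfdc3 by 4.75 (adjusted p = 0.000175). Cstdc5 did not differ by the test, at 0.63 (adjusted p = 0.50), and the value depended on the slide: with the male PITX1+ sections alone it was -2.87 (adjusted p = 0.00048). Library size in place of TMM shifted the median of all genes by 1.10 and the split from 120 higher and 75 lower to 194 and 37, with Slpi at -2.72, Serpinb3b at -2.89, Stfa3 at 4.21 and Wfdc3 at 5.97. Over all keratinocyte-like cells, Slpi of PITX1+ skin thus stood between Control skin and buccal mucosa, while Serpinb3b overlapped with Control skin and lay below every buccal section. The kinds making up this class differed between the tissues, and their part was not tested. In basal-like cells Slpi was 633 to 2718 CPM in PITX1+ (median 2301) and 594 to 1236 CPM in buccal mucosa (median 842). In hair follicle-like cells it was 1687 to 2944 CPM against 348 to 645 CPM in 3 buccal sections. Suprabasal-like cells went the other way, at 2993 and 18371 CPM against 53592 to 66803 CPM. The comparisons of buccal mucosa with Control and with PITX1+ share the buccal sections, and each shares its skin sections with the comparison of PITX1+ and Control.

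The place of each transcript within the epithelium was measured as the distance of its keratinocyte-like cell to the nearest fibroblast-like or vascular-like cell. It is given relative to the average keratinocyte-like cell of the section, which lay 27.3 to 30.2 µm from the stroma in buccal mucosa, 21.3 to 33.7 µm in Control and 20.2 to 26.6 µm in PITX1+. In buccal mucosa Cstdc5 transcripts lay 30.02 ± 4.5 µm (SD, n = 6) and Slpi transcripts 26.8 ± 4.6 µm (SD, n = 6) farther out than the average cell, against 1.9 ± 1.3 and 2.6 ± 3.7 µm (SD, n = 3) in Control. For Stfa3 the values were 15.8 ± 3.5 µm in buccal mucosa and 1.4 ± 3.1 µm in Control. For Serpinb3b they were 15.6 ± 5.1 and 3.1 ± 2.4 µm. For these 4 members the buccal and Control sections did not overlap (two-sided exact permutation test over sections, p = 0.0119, the smallest that 6 sections against 3 allow, adjusted p = 0.0357 over 12 tests). Slpi in Control (136 transcripts) and the stefins in female Control were near their levels in fibroblast-like cells, so these Control distances are those of transcripts near the background. With Wfdc3, described next, 5 of 6 members did not overlap, beside 33.5% of the 328 panel genes, 16.2% with the buccal sections farther out. Buccal Slpi rose from 512 to 3353 CPM in cells within 10 µm of the stroma to 76175 to 87463 CPM at 40 to 80 µm.

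**Figure D3:**
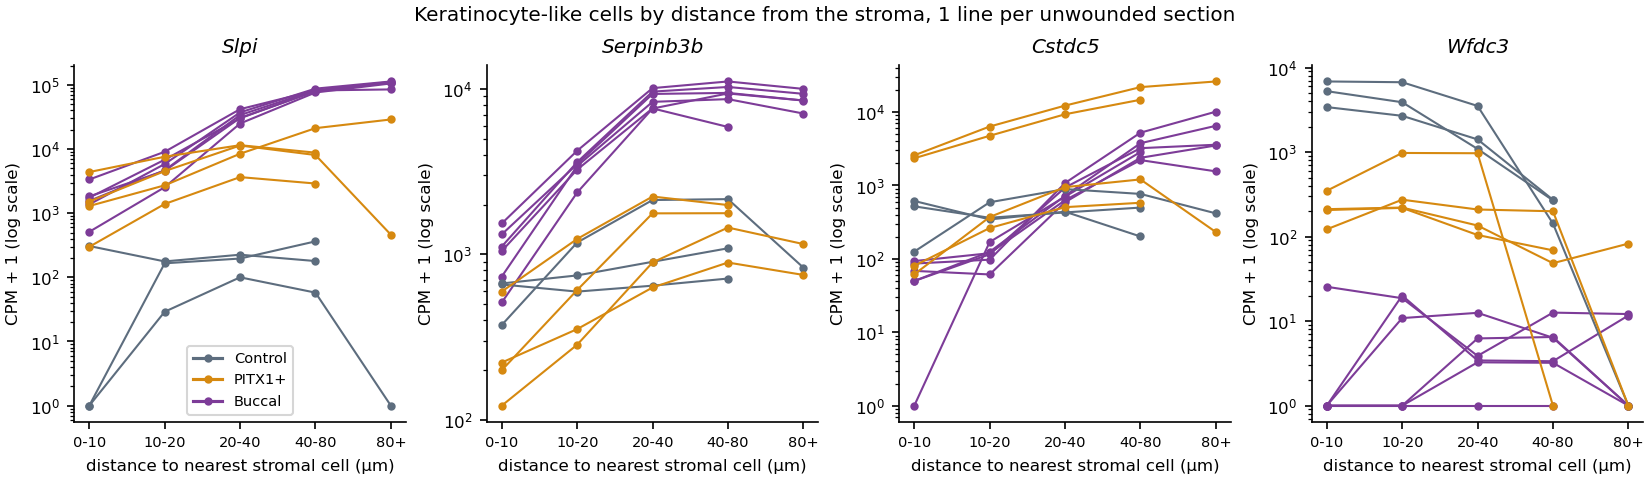
Level of Slpi, Serpinb3b, Cstdc5 and Wfdc3 in keratinocyte-like cells, in CPM + 1 on a log axis, by distance to the nearest fibroblast-like or vascular-like cell in µm; each line is 1 unwounded section, coloured by group. Buccal lines rise with distance for Slpi, Serpinb3b and Cstdc5, and Control lines of Wfdc3 fall.

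Wfdc3 in Control lay nearer to the stroma than the average cell, by -7.5 µm on average, and fell from 5259, 3407 and 6852 CPM within 10 µm to 268, 272 and 142 CPM at 40 to 80 µm in Control 1 to 3. In buccal mucosa its value was 14.5 µm over 5 sections, some with as few as 2 transcripts (exact permutation p = 0.0179, adjusted p = 0.0429). Between PITX1+ and Control no member passed this test, whose smallest possible p is 0.0286 for 4 sections against 3. Wfdc3 reached that smallest p, at -1.4 against -7.5 µm (exact permutation p = 0.0286, adjusted p = 0.0571). The sections of Serpinb3b, Stfa3, Cstdc5 and Wfdc3 did not overlap, each with PITX1+ farther out, 4 of 6 members, beside 19.8% of the 328 panel genes not overlapping and 9.76% with PITX1+ farther out. For Stfa3 the gap was narrow, from 4.58 µm in the highest Control section to 4.59 µm in the lowest PITX1+ section. Slpi lay 8.5 µm out in PITX1+ against 2.6 µm in Control (exact permutation p = 0.371), but Control 3 held only 9 Slpi transcripts. In the female PITX1+ sections Cstdc5 rose from 2350 and 2577 CPM within 10 µm of the stroma to 14724 and 21893 CPM at 40 to 80 µm.

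Day 4 wounds held 1 Control section and 2 PITX1+ sections, and were not tested; intervals are exact 95% Poisson intervals that cover counting error only. In keratinocyte-like cells Slpi was 4436 CPM (4281 to 4596) in the Control wound and 14686 (14495 to 14879) and 17974 CPM (17775 to 18174) in the PITX1+ wounds, a ratio of 3.68 of the PITX1+ mean over Control. The keratinocyte-like class was made up differently: activated-like cells were 2.73% of all cells in the Control wound and 11.9% and 9.60% in the PITX1+ wounds, and hair follicle-like cells 13.6% against 8.46% and 2.43%, and their part in the wound values was not tested. Of the other inhibitors, 4 of 5 were lower in both PITX1+ wounds. Cstdc5 was 28952 CPM (28553 to 29355) in the Control wound and 11291 and 17406 CPM in the PITX1+ wounds, 2.02-fold lower on average. Stfa3 was 22316 CPM (21966 to 22670) against 6620 and 8857 CPM, 2.88-fold lower. Serpinb3b was 4671 CPM (4512 to 4835) against 3192 and 3230 CPM, 1.45-fold lower. Wfdc3 was 641 CPM (583 to 704) against 109 and 109 CPM, 5.88-fold lower, although with transcripts of any quality it was 1449 CPM in the Control wound, 3.07-fold the PITX1+ mean. The intervals of both PITX1+ wounds lay outside that of the Control wound for all of these, and Wfdc18 (101 CPM against 169 and 114 CPM) was not separated. By the same rule 60.4% of the 328 panel genes were separated, 28.4% with both PITX1+ wounds higher and 32.0% with both lower.

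**Figure D4:**
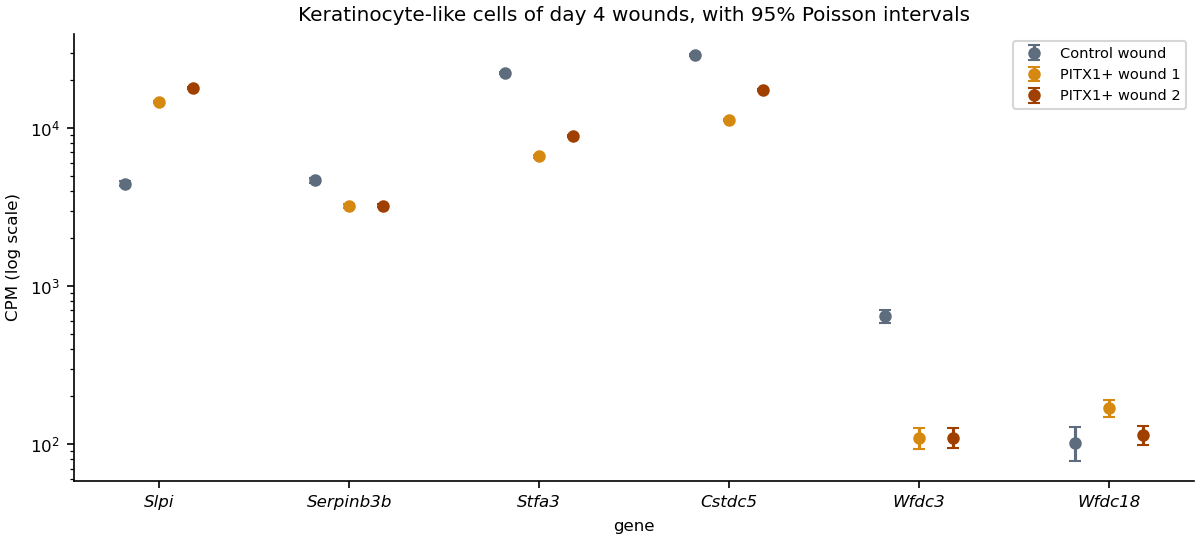
Level of each member in keratinocyte-like cells of the 3 day 4 wound sections, in CPM on a log axis, with exact 95% Poisson intervals. Slpi is higher in both PITX1+ wounds (14686 and 17974 CPM) than in the Control wound (4436 CPM), and Serpinb3b, Stfa3, Cstdc5 and Wfdc3 are lower.

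In basal-like cells of the wounds the order was the same, with Slpi at 1428 CPM in Control and 5403 and 5965 CPM in PITX1+, Cstdc5 at 45935 CPM against 17926 and 19737 CPM, and Stfa3 at 34761 CPM against 10292 and 5820 CPM. The clusters of this class differed, however: the one led by Fcgbp held 548 of 742 basal-like cells in the Control wound, 826 of 2157 in PITX1+ wound 1 and 704 of 2518 in PITX1+ wound 2. Within it Slpi was 1199 CPM in Control and 1106 and 1340 CPM in PITX1+, while in the one led by Lama3 it was 2383 CPM against 7870 and 7419 CPM. In cornifying-like cells, however, Slpi was 7553 CPM (7105 to 8021) in Control, with PITX1+ wound 1 below it at 4527 CPM (4167 to 4910) and PITX1+ wound 2 at 7879 CPM (7496 to 8277), whose interval overlapped. In suprabasal-like cells it was 5893 CPM against 6176 and 6334 CPM, and all 3 intervals overlapped. Activated-like cells, whose clusters were in different proportions, held 12508 CPM of Slpi in the Control wound and 25674 to 27805 CPM in the PITX1+ wounds. In these cells Cstdc5 was 37853 CPM in Control against 7203 to 12003 CPM. Stfa3 was 15219 CPM against 1862 to 1948 CPM, and Serpinb3b 7000 CPM against 2361 to 2837 CPM. For the stefins and Serpinb3b the PITX1+ wounds lay on either side of the Control wound in cornifying-like cells. There Stfa3 was 20236 CPM in Control against 19251 and 22513 CPM in PITX1+, and Cstdc5 33560 CPM against 26352 and 33983 CPM. Serpinb3b was 4346 CPM against 5639 and 3621 CPM. In hair follicle-like cells Slpi was 462 CPM against 4458 and 1545 CPM, whereas the stefins of the PITX1+ wounds lay on either side of Control, Stfa3 at 1345 CPM against 574 and 1952 CPM and Cstdc5 at 2545 CPM against 1739 and 6463 CPM. Neutrophil-like cells were 22.3% of cells in the Control wound and 18.6% and 29.1% in the PITX1+ wounds, and they too carried Slpi, at 34934 CPM in Control and 24924 and 18588 CPM in PITX1+. Their 3 clusters were in different proportions, and within each the Control wound and the pooled PITX1+ wounds were closer, at 44533 and 42933, 25463 and 22477, and 9374 and 9396 CPM. In the Control wound they held 52.2% of all Slpi transcripts, against 21.7% and 32.7% in PITX1+ wounds 1 and 2. Over all cells the PITX1+ mean was 1.99-fold the Control wound. The study left the eschar out of its own analysis, whereas here it was not outlined, and its part in these shares was not tested. The median depth was also lower in the Control wound, at 11 transcripts per cell against 31 and 42 in PITX1+ wounds 1 and 2. The 9 neutrophil markers, of which S100a8 and Chil3 also led keratinocyte-like clusters, summed to 10108 CPM in keratinocyte-like cells of the Control wound. In those of PITX1+ they summed to 11176 and 29581 CPM, and their part in the Slpi difference was not tested.

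Set beside unwounded male skin, on another slide and without a test, wound keratinocyte-like cells held more of 4 members in both conditions. In Control the ratio of wound over unwounded was 71.1 for Slpi, 39.8 for Cstdc5, 11.6 for Stfa3 and 2.65 for Serpinb3b. The Slpi ratio is set against 9 transcripts in Control 3, whose 62.4 CPM was near the 42.5 CPM of its fibroblast-like cells. In PITX1+ it was 3.52 for Slpi, 29.9 for Cstdc5, 10.5 for Stfa3 and 3.93 for Serpinb3b. Wfdc3 was lower in wounds over keratinocyte-like cells, 5.53-fold in Control and 4.84-fold in PITX1+. In hair follicle-like cells it was 5.32-fold lower in Control and 1.29-fold in PITX1+, and in basal-like cells 14.7-fold and 8.16-fold lower. In suprabasal-like cells taken with cornifying-like and activated-like cells it was 2.94-fold higher in the Control wound and 2.98-fold lower in the PITX1+ wounds. The cluster led by Krt15, in which Wfdc3 was high, held 33.4% of keratinocyte-like cells in Control 3 and 12.6% in the Control wound. Suprabasal-like cells held the most Stfa3 of any kind in each wound section, with Stfa3 at 50420 CPM in Control and 26786 and 36933 CPM in PITX1+, and they held Cstdc5 at 48496 CPM against 29087 and 30956 CPM. Serpinb3b in these cells was 11448 CPM in Control and 12075 and 10994 CPM in PITX1+, above the 7922 to 10307 CPM of buccal suprabasal-like cells.

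The panel also held 3 other protease inhibitors (the serpin Serpinb2 and the metalloproteinase inhibitors Timp1 and Timp3) and 11 proteases. Among them Mcpt4, Mcpt8 and Mmp9 also took part in sorting the cells into clusters. In keratinocyte-like cells of PITX1+ against Control, 2 of these 14 genes were higher and 3 lower, beside 31.1% of all genes called, with a median log2 fold change of -0.52. The sheddase Adam10 rose by 0.94 ± 0.24 (SE, adjusted p = 0.0268) and the membrane-anchored matrix metalloproteinase Mmp14 by 0.97 ± 0.26 (SE, adjusted p = 0.0291). Serpinb2, an inhibitor of plasminogen activators, fell by 1.65 on the log2 scale (adjusted p = 0.0103), the mast cell protease Mcpt4 by 1.01 (adjusted p = 0.0281) and the aspartic protease Napsa by 1.42 (adjusted p = 0.0424). Beside these, the 13 macrophage markers summed to 2905 to 5647 CPM in Control and 1432 to 2728 CPM in PITX1+ in the same cells, with 3 of 13 called lower and all detected, and of the 14 fibroblast markers 6 were called lower and 2 higher. Their part in these changes was not tested. In basal-like cells 1 of 11 tested was called, Mmp14, beside 4.22% of all genes, and in suprabasal-like cells 1 of 14, Mcpt8, which was lower, beside 20.7%. Hair follicle-like cells had 2 higher (Adam10 and Mmp14) and 4 lower (Mcpt4, Mmp2, Napsa and Serpinb2), beside 37.2%.

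Buccal against Control keratinocyte-like cells had 4 of the 14 higher (Adam10, Mmp14, Mmp2 and Serpinb2) and 7 lower (F10, Mcpt4, Mcpt8, Mmp12, Mmp3, Mmp9 and Timp3), beside 69.1% of all genes called. Serpinb2 was higher by 2.10 ± 0.33 on the log2 scale (SE, adjusted p = 0.000208), the direction of Slpi and Serpinb3b there, and opposite to its own change in PITX1+ skin. Against buccal mucosa, PITX1+ cells had F10, Mmp12, Mmp9, Timp1 and Timp3 higher and Mmp2 and Serpinb2 lower, of 13 tested, beside 60.2%. None of the 14 was called in the difference between slides. Fibroblast markers summed to 18909 to 22369 CPM in keratinocyte-like cells of Control, 7903 to 17116 CPM in PITX1+ and 1426 to 2629 CPM in buccal mucosa, all 14 of them detected in each group. Timp3 and Mcpt4 were among the genes lower in buccal mucosa and Mmp2 and Mmp14 among those higher, and the part of stromal RNA in these results was not tested.

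Likeness to other genes was measured as Pearson's r of log2(CPM + 10) over 129 sums of a section and a kind of cell, which share slides and cells, and is a description. Slpi was most like Sprr2d (0.75), Sprr1b (0.73) and Krt16 (0.69), and Serpinb3b like Gsdmc (0.85), Grhl3 (0.82) and Sprr2a3 (0.81). Stfa3 and Cstdc5 were most like each other (0.87), then like Krt1 (0.81) and Flg (0.75) for Stfa3 and Sprr2d (0.85) and Krt16 (0.77) for Cstdc5. Wfdc3 was most like Lhx2 (0.80), Fcgbp (0.65) and Wnt7a (0.65). Wfdc18 was most like Igkc (0.66), Krt18 (0.59) and Jchain (0.56).

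Where a transcript lay in its cell differed as well. Over the nucleus lay 10.5% of buccal Slpi transcripts and 8.06% of buccal Cstdc5 transcripts, against 26.3% of all panel transcripts of buccal keratinocyte-like cells. In PITX1+ the shares were 31.5% for Slpi and 27.6% for Cstdc5, against 48.6% for the panel. In Control 56.6% of the 136 Slpi transcripts lay over the nucleus, where the panel stood at 47.2%. The share of Wfdc18 in Control was 87.3% of 189 transcripts.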

How the data were processed

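The authors deposited, for each of 4 Xenium slides, the instrument's whole-number transcript counts per cell, a quality score for every decoded transcript, and other values such as positions in µm; the software version was not given in the sources used here, and the files do not separate sections. Members and lists were chosen with earlier results of these data known.

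Transcripts under a quality score of 20 were dropped and the others summed by cell (6288712 to 10412627 per slide; 98.1% to 99.1% lay in cells). Recounted totals equalled the deposited counts in 100% of cells. Cells within 100 µm (wounds 200 µm) were chained into sections of at least 2000 cells and named by position: the first section, on the 4-section slide the first 2, as Control. Cells with at least 3 genes per section came nearest to a total the study lists for the same condition in 14 of 14 unwounded sections, at most 4.91% off. No eschar was outlined. Slides shared 1 to 7 cell identifiers.

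Cells with at least 10 transcripts were clustered (k-means, 45 clusters, 40 components, numpy 2.4.6, scikit-learn 1.9.0) without the 6 members. The 14 listed protease genes were left out too, except Mcpt4, Mcpt8 and Mmp9. A name needed 3 markers raised 1.5-fold in 10% of cells. Doublets were not called. Counts of sections with at least 50 cells of a class were tested over all genes with edgeR 4.0.16 (R 4.3.3; TMM, slide as covariate within skin, Benjamini-Hochberg, threshold 0.05), checked on simulated data; DESeq2 1.42.0 was an alternative. Others were library size, any quality, nuclear transcripts, 30 or 60 clusters, at least 20 transcripts per cell, no covariate, each section left out, and single slides, chosen after seeing the data. Named genes were the 6 members, the 14 listed genes where called, Pitx1, and the 3 most alike genes per member. Single clusters were described with their values known, also where this is not said. Some items are not reported here.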

Additional observations from a re-analysis of the deposited data

Results flagged for a closer look

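Wfdc3 in keratinocyte-like cells of PITX1+ 4 stood at 835 CPM, far above the next PITX1+ section at 220.1 CPM, and in hair follicle-like cells at 1029 CPM against 277.7 CPM. Wfdc18 in Buccal 6 stood at 394.2 CPM in keratinocyte-like cells, next 44.8 CPM, and at 961.3 CPM in basal-like cells, next 41.54 CPM; this is the section with most salivary-like cells. Slpi transcripts of PITX1+ 2 lay 19.7 µm farther from the stroma than the average keratinocyte-like cell, next 5.764 µm. These 5 values, from 3 sections, lay far from the rest of their group by Dixon's test, out of 54 groups examined, and chance alone gives about 1 in 20.

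The PITX1+ change differed between the male and the female slide (male minus female, log2 scale) by -6.864 for Stfa3, -6.014 for Cstdc5 and 5.328 for Pitx1 in the test of the interaction.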

How the results depend on the processing

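Over the alternatives tried, the members called in a comparison kept their direction in all 367 refits and fell short of the threshold in 63; of 288 refits of members not called, 26 passed the threshold in the same direction and 25 changed sign, 3 of these past the threshold. Of 12 alternatives for the wounds, 7 were the same as the main setting and 5 moved from it. Single-slide fits were chosen after seeing the data.

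The number of members called for PITX1+ against Control in keratinocyte-like cells (2) was 1 for male and 4 for female sections only, and 2 to 4 with a section left out, 4 without Control 3. In basal-like cells (2) it was 0 with library size in place of TMM, 1 with nuclear transcripts, 1 with 30 clusters, 0 without the slide as covariate, 0 on the male and 4 on the female slide, and 0 to 3 with a section left out (0 without Control 1, Control 2, PITX1+ 1 or PITX1+ 2, and 3 without Control 3). In suprabasal-like cells (1) it was 2 with library size, 3 with DESeq2, 0 on the male and 5 on the female slide, and 1 to 3 with a section left out, 3 without Control 3 or PITX1+ 4. For the difference between slides (2) it was 1 to 4, 1 without Control 1 and 4 without PITX1+ 4. For distance (5) it was 0 to 5, because 1 section fewer raises the smallest possible p.

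These uncalled log2 values changed sign; the cause was not tested. Serpinb3b in keratinocyte-like cells: 0.036 with any quality, 0.075 with 60 clusters, 0.076 over all cells, 1.06 on the female slide, -0.73 to 1.03 with a section left out. On the male slide: Stfa3 -1.50, -1.87 and -0.37 and Cstdc5 -0.72 and -1.14 in keratinocyte-like, basal-like and (Stfa3) suprabasal-like cells. Stfa3 in hair follicle-like cells: 1.00 on the female slide (adjusted p = 0.002, edgeR), -1.02 to 1.04 with a section left out. Stfa3 in buccal mucosa against Control: -1.61 to 1.33 with a section left out. Cstdc5 in PITX1+ against buccal mucosa: -2.87 with male PITX1+ sections, -0.17 to 1.06 with a section left out. Slpi in the difference between slides: 0.57 with library size, 0.085 with DESeq2, 0.79 with nuclear transcripts, 0.011 with at least 20 transcripts per cell, -0.86 to 0.66 with a section left out.

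Genes called in all: DESeq2 called 186 in keratinocyte-like, 37 in basal-like (20 higher, 17 lower; 9 and 4 by edgeR), 156 in suprabasal-like and 155 in hair follicle-like cells (47.7% higher, 58.2% by edgeR), and 42 for the slides (20 and 22; 4 and 11 by edgeR), against 102, 13, 68, 122 and 15. Library size shifted the median by -0.45 in suprabasal-like and -0.18 in basal-like cells (0 genes called) and by 0.67 for the slides (8 higher and 6 lower). No paired analysis was possible because the sections carry no replicate numbers from the labels. Depth is a limit in Control, whose Slpi values rest on 136 transcripts, and in the Control wound, with a median of 11 transcripts per cell.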

Other observations

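Wfdc3 was the member whose wound value depended most on the quality minimum: with transcripts of any quality, keratinocyte-like cells of the Control wound held 1449 CPM in place of 641 CPM, and the ratio of Control over the PITX1+ mean was 3.07 in place of 5.88.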
